A study of Mus musculus with 12 samples.

Results

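Nuclear-encoded genes of the mitochondrial respiratory chain were followed by their promoter accessibility in mouse liver. They were the promoters whose gene symbol begins with Nduf, Uqcr, Cox4 to Cox8 or Atp5, or is Sdha, Sdhb, Sdhc or Sdhd, which gave 95 genes of 25124 symbols. Where a gene had several promoters, the promoter with the highest mean level over all libraries stood for it, in CPM, that is counts scaled to library size. The 95 genes comprised 38 of complex I, 8 assembly factors of complex I (Ndufaf genes), 4 of complex II, 8 of complex III, 20 of complex IV and 17 of complex V. Ndufa4 and Cox7a2l were counted with complex IV, where their products are known to act. Ndufa4l2 was put there beside Ndufa4, after which it is named, and its own place was not examined.

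Open chromatin was measured by ATAC-seq, in which the Tn5 transposase cuts accessible DNA. The 3 groups were 100 mg/kg PCN (pregnenolone 16α-carbonitrile, an activator of the mouse pregnane X receptor), 10 mg/kg atorvastatin (a cholesterol-lowering statin) and control, which received the vehicle, distilled water. All were male wild-type C57BL/6N mice of 19 to 20 weeks on standard chow, treated by oral gavage for 4 days and then fasted for 12 h. Each group had 4 libraries, the labels do not say that each came from a separate mouse, and p-values therefore measure only the spread between these libraries.

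The respiratory chain carries electrons from NADH through complex I, or from succinate through complex II, to ubiquinone, on to complex III and cytochrome c, and to oxygen at complex IV. Proton pumping by complexes I, III and IV drives ATP synthesis by complex V. Apart from a small set of subunits coded by mitochondrial DNA, the subunits are coded in the nucleus, and factors such as NRF1, GABP (an ETS factor), YY1 and ERRα are known to act at their promoters. Hepatocytes are rich in mitochondria. Statins block the mevalonate pathway, which also supplies the side chain of ubiquinone, and effects of statins on mitochondria have been described.

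Sequences around the starts of many of these genes carried NRF1, ETS or YY1 motifs. RefSeq windows of 300 bases (250 before and 50 after the transcription start, build GRCm38.p6) were found for 76 of the 95 genes, 81 windows in all. The first set below shows the 250 bases before the start of 5 genes with such motifs, 5′ to 3′ on the strand of the gene. Capitals mark NRF1 (GCGCA and GCGC with any 1 base between them), ETS (CCGGAAG) and YY1 (AAGATGGCG) motifs on either strand. Sdha (chr13:74350241-74350490, minus strand) codes for the flavoprotein of complex II, and Ndufb4 (chr16:37654369-37654618, minus strand) for an accessory subunit of complex I. Cox6a1 (chr5:115348959-115349208, minus strand) is the broadly expressed Cox6a isoform, Sdhd (chr9:50603850-50604099, minus strand) a membrane anchor of complex II and Atp5j (chr16:84834977-84835226, minus strand) coupling factor 6 of complex V.
Sdha: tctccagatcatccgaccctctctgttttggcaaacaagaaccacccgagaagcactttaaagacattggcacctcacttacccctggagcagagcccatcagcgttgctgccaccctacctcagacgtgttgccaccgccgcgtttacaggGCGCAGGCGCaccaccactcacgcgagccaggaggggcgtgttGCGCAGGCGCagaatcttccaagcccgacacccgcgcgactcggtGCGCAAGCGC
Ndufb4: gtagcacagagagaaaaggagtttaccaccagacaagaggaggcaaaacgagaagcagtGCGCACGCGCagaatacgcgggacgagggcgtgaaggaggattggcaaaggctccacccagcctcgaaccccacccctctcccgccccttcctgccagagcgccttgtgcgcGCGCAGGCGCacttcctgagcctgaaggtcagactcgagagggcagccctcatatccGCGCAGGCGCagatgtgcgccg
Cox6a1: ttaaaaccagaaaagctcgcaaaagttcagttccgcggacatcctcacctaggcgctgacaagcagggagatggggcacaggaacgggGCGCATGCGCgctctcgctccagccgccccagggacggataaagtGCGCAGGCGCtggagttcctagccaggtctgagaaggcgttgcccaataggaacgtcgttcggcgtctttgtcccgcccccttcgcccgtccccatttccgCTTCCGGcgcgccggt
Sdhd: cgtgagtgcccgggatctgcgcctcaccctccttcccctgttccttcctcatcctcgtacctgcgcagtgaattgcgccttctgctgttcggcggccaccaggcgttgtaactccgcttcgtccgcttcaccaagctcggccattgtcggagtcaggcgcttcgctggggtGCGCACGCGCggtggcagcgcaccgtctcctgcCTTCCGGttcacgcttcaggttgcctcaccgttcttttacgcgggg
Atp5j: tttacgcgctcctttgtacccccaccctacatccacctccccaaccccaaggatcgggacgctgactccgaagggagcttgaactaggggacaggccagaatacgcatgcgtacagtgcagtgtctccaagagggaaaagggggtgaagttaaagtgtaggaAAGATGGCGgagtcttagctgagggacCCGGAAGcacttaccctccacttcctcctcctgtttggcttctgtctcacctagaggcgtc

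The second set shows, for contrast, the same stretch of Cox8b (chr7:140900447-140900696, minus strand), the Cox8 isoform of heart and skeletal muscle, and of Cox7b2 (chr5:71548206-71548455, minus strand), a testis isoform with the lowest promoter level of the 95 genes. These letters held no match to the NRF1, ETS, YY1 or ERR motif. Neither did the windows of Atp5d (67.9 CPM) and Atp5g1 (67.5 CPM), which were among the most open promoters.
Cox8b: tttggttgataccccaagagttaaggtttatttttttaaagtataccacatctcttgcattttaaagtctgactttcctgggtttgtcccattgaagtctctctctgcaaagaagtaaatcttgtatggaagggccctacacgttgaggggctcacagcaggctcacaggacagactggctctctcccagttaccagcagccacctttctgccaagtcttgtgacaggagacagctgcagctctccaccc
Cox7b2: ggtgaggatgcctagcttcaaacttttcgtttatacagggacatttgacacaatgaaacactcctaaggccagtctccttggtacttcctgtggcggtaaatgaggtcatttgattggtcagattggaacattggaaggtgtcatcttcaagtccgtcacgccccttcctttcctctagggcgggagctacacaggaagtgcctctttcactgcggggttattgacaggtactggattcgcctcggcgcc

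Sdha and Ndufb4 each had 3 NRF1 matches within 250 bases of the start, and Cox6a1 had 2 together with an ETS match. An NRF1 match stood in 24.7% of the 81 windows, against 4.6% of all 32851 windows in the RefSeq table and 6.4% of the 21263 windows of protein-coding genes. For ETS the shares were 23.5%, 8.9% and 11.6%, and for YY1 9.9%, 1.4% and 1.8%. At least one of the 3 motifs was found in 49.4% of the respiratory chain windows, 13.6% of all windows and 17.9% of protein-coding windows. The ERR motif (TCAAGGTCA) was rare, in 2.5%, 0.4% and 0.3%. General promoter letters differed less, with GGGCGG (SP) in 44.4%, 35.7% and 46.2%, CCAAT in 43.2%, 37.4% and 38.2%, and TATAAA in 11.1%, 13.6% and 12.6%. Both strands were searched, matches of different motifs were counted separately even where they shared letters, and a match is a description of sequence, not of binding.

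**Figure D1:**
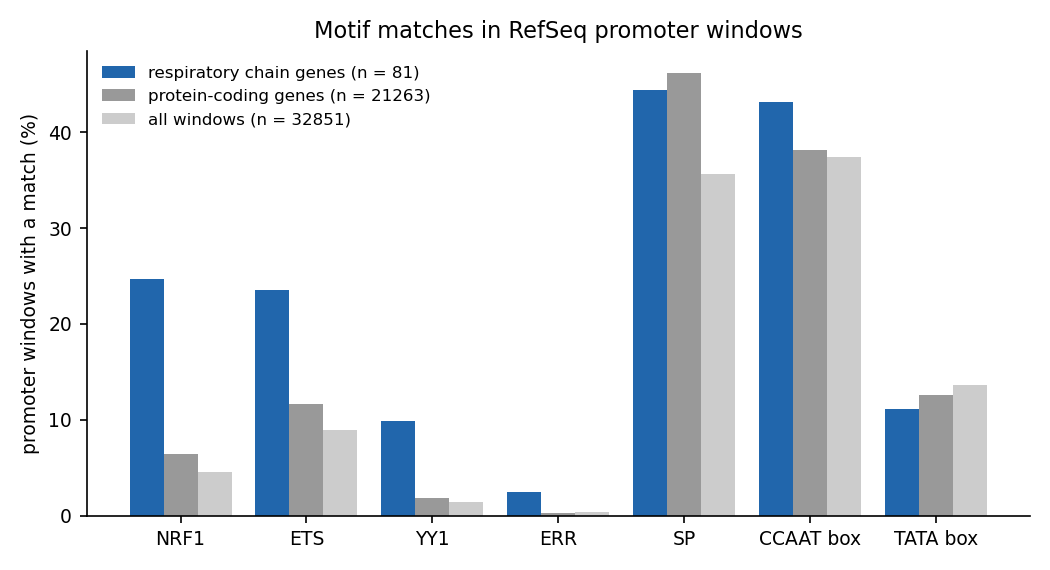
Share of promoter windows (percent, y axis) with a match to each motif (x axis), for respiratory chain windows, all windows of the RefSeq table and windows of protein-coding genes. The NRF1, ETS and YY1 bars of the respiratory chain windows stand at 24.7%, 23.5% and 9.9%, above the 6.4%, 11.6% and 1.8% of protein-coding windows, while the SP bars stand at 44.4% and 46.2%.

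Position and strand of YY1 matches in windows of other genes were not examined. Within the respiratory chain genes, the YY1 matches lay in one direction and mostly at one place. All 8 were on the strand of the gene, and 7 of the 8 began 11 to 36 bases after the start. They are printed here because position and orientation are what they share, as 25 bases around each match with the motif in capitals. The coordinates are Ndufaf8 chr11:120098934-120098958 (plus strand), Ndufc1 chr3:51408919-51408943, Atp5j2 chr5:145191504-145191528, Ndufa9 chr6:126849101-126849125, Ndufs6 chr13:73328435-73328459, Ndufs4 chr13:114388045-114388069 (these on the minus strand) and Ndufs7 chr10:80249463-80249487 (plus strand).
Ndufaf8: ggcagggcccAAGATGGCGgcgccc
Ndufc1: cctgcggaacAAGATGGCGccgtcc
Atp5j2: ccaggacttcAAGATGGCGtcactc
Ndufs7: ggccgaggccAAGATGGCGgcgctg
Ndufa9: attgtgggagAAGATGGCGgccgcc
Ndufs6: ggtcaccggcAAGATGGCGgcggtg
Ndufs4: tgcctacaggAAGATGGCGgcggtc

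The eighth YY1 match, in Atp5j, began 88 bases before the start and is in the sequence printed for that gene. Another window of Atp5j, at a different start, held no NRF1, ETS or YY1 match. Of 26 NRF1 matches in 19 genes, 20 were on the strand of the gene, 14 lay within 100 bases before the start and 6 after it. A match that reads the same on both strands, such as GCGCATGCGC in Cox6a1, was counted as on the strand of the gene. The 22 ETS matches also fell in 19 genes, 12 within 100 bases before the start and 7 after it. By complex, NRF1 matches were found in 8 of 34 windows of complex I, 2 of 3 of complex II, 1 of 5 of complex III, 1 of 14 of complex IV and 6 of 18 of complex V. Respiratory chain windows had a median GC content of 58.3% and a median ratio of observed to expected CpG of 0.83. All windows had medians of 52.7% and 0.384, and protein-coding windows 56.3% and 0.567. Promoter level differed little with the motifs. The median over genes with an NRF1 match was 27.8 CPM, against 28.6 CPM over genes without one, and for ETS the medians were 33.3 and 27.8 CPM. Genes without a window in the table included Atp5a1, Atp5mpl, Cox4i1, Cox4i2, Cox6a2, Cox6c, Cox8c, Ndufa11b, Ndufa2, Ndufa4l2, Ndufaf6, Ndufb4c, Ndufb9, Ndufs1, Sdhc, Uqcrb, Uqcrc2 and Uqcrq.

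Libraries held 1679054 to 15336000.5 counts in promoters, and 2 of the 12, atorvastatin 3 and control 3, stood apart. Their median correlations with the other libraries across promoters were 0.744 for atorvastatin 3 and 0.698 for control 3, against 0.897 to 0.966 for the other 10. Values given below as without the 2 low-correlation libraries leave out both. Promoters of the 10 hepatocyte markers (Alb, Ttr, Apoa1 and others) had a median level of 35.2 CPM, against medians of 5.75 to 9.24 CPM for markers of Kupffer cells, endothelium, stellate cells, lymphocytes, cholangiocytes, neutrophils and muscle. Summed hepatocyte marker levels ranged from 377 to 535 CPM with PCN, 316 to 603 CPM with atorvastatin and 219 to 504 CPM in control. Of the 10 hepatocyte markers, 8 lay above control with PCN (median log2 fold change 0.30) and 8 with atorvastatin (0.36), and without the 2 low-correlation libraries the medians were 0.15 and 0.22. Above control with PCN lay 0 of the 7 stellate cell and fibroblast markers (median -0.59), 1 of 7 Kupffer cell (-0.48), 1 of 7 endothelial (-0.20), 1 of 4 neutrophil (-0.63), 0 of 4 muscle (-0.51), 3 of 7 lymphocyte (-0.05) and 2 of 5 cholangiocyte markers (-0.23). With atorvastatin the counts in the same order were 2, 1, 4, 2, 3, 3 and 4. Without the 2 low-correlation libraries the counts were 0, 1, 2, 2, 0, 0 and 3 with atorvastatin. With PCN they were then 0, 2, 0, 2, 0, 1 and 2. The part of cell makeup in the results below was not tested. In bulk liver, fewer cells of a type and less accessibility per cell cannot be told apart.

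Respiratory chain promoters were open in liver, with a median level of 28.6 CPM over the 95 genes against 13.4 CPM over all 24602 symbols tested. The levels are means over the 12 libraries, and they compare promoters as the submitters drew them, since their widths are not given in the sources used here. All 95 passed the filter on low counts. Levels ran from 2.67 CPM (Cox7b2) to 72.3 CPM (Atp5j, above 96.8% of all symbols). Complex V had the highest median, 36.7 CPM, with every gene above 20 CPM. Complex II followed at 32.3 CPM, the Ndufaf assembly factors at 31.9 CPM, complex III at 30.2 CPM and complex I at 27.5 CPM. Complex IV was lowest at 21.2 CPM and held 6 of the 8 genes under 10 CPM. Leaving out the 2 low-correlation libraries gave medians of 38.9, 32.6, 33.3, 31.3, 27.7 and 22.5 CPM in the same order of complexes.

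**Figure D2:**
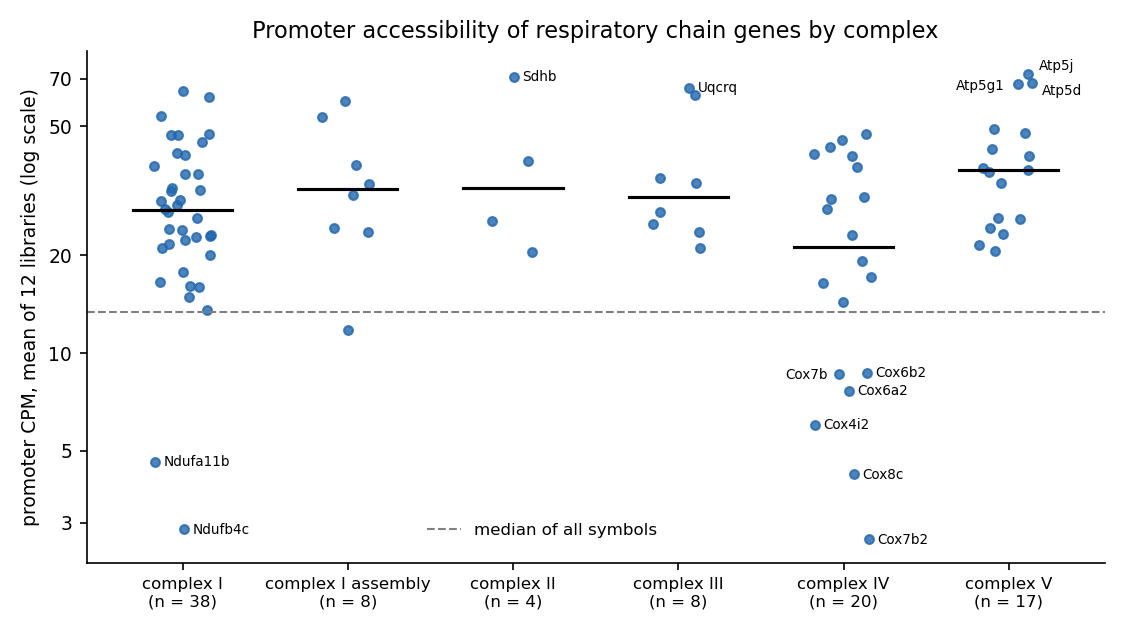
Mean promoter level over the 12 libraries (CPM, log scale) for each of the 95 genes, by complex. Points are genes, bars are medians and the dashed line is the median of all symbols, 13.4 CPM. Only complexes I and IV have genes under 10 CPM, and all 17 genes of complex V lie above 20 CPM.

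The most open promoters came from several complexes. Atp5j had 62.2, 67.0, 99.0 and 97.5 CPM with PCN, 58.8, 88.5, 67.4 and 90.7 CPM with atorvastatin and 61.4, 83.5, 24.3 and 67.2 CPM in control. Sdhb, the iron-sulfur subunit of complex II, had 56.7, 73.9, 92.2 and 95.4 CPM with PCN, 54.9, 77.7, 38.8 and 89.5 CPM with atorvastatin and 51.7, 62.1, 64.2 and 92.4 CPM in control. For both genes the groups overlapped, and the lowest library was one of the low-correlation pair. Next came Atp5d, the delta subunit of complex V, at 67.9 CPM on average, Atp5g1, one of 3 genes for its c subunit, at 67.5 CPM, and Uqcrq, a small subunit of complex III, at 65.4 CPM.

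Subunits of one complex differed in promoter level. In complex II, which has 4 nuclear subunits, Sdhb stood at 70.8 CPM, Sdhd at 39.0 CPM, Sdhc, the other membrane anchor, at 25.6 CPM and Sdha at 20.4 CPM. Sdha had 15.8, 19.4, 16.4 and 25.04 CPM with PCN, 18.6, 17.9, 15.5 and 21.4 CPM with atorvastatin and 19.6, 19.9, 21.5 and 33.9 CPM in control, all below every library of Sdhb. Of the catalytic core of complex I, Ndufs8 stood at 61.4 CPM, Ndufs7 at 47.3 CPM and Ndufv1, which binds the NADH-oxidising flavin, at 47.0 CPM. Ndufs1 had 40.7 CPM. In complex III the core protein Uqcrc2 had 34.7 CPM, Uqcrc1 25.02 CPM and Uqcrfs1, the Rieske iron-sulfur protein, 23.5 CPM. In complex V the beta subunit Atp5b had 47.6 CPM, the gamma subunit Atp5c1 42.6 CPM and the alpha subunit Atp5a1 36.1 CPM. In complex IV the subunits Cox5a and Cox5b had 47.2 and 27.8 CPM.

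Mean levels of isoform genes separated by the tissue in which they are known to be used. Broadly expressed Cox4i1 averaged 45.4 CPM and Cox4i2, known from lung, 6.00 CPM. Cox6a1 averaged 29.8 CPM and its muscle counterpart Cox6a2 7.62 CPM, Cox6b1 19.2 CPM and the testis form Cox6b2 8.71 CPM. Cox7a2 had 30.1 CPM and the muscle form Cox7a1 14.4 CPM. Of the Cox8 genes, Cox8a had 40.9 CPM, the muscle form Cox8b 16.5 CPM and the testis form Cox8c 4.23 CPM. In all 5 families the form known from liver had the higher mean. Single libraries of Cox6a1 and Cox6a2 overlapped, with Cox6a1 at 20.1 CPM in control 4 and Cox6a2 at 20.7 CPM in control 3. The lowest library of Cox6b1 (15.95 CPM, control 3) lay barely above the highest of Cox6b2 (15.91 CPM, atorvastatin 3). Cox4i1 and Cox4i2 did not overlap, with Cox4i1 at 37.9 to 57.0 CPM with PCN, 42.0 to 57.2 CPM with atorvastatin and 13.6 to 51.2 CPM in control, and Cox4i2 at 4.04 to 4.76, 3.76 to 7.45 and 4.40 to 12.0 CPM. The muscle forms Cox7a1 and Cox8b stood above the median of all symbols, and the muscle marker promoters (Ckm, Myh7, Tnni3, Actn2) had a median of 7.33 CPM.

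Not every family was split this way. Ndufa4 averaged 43.0 CPM and Ndufa4l2, known for its induction by hypoxia, 40.4 CPM, so that their libraries overlapped. The 3 genes for the c subunit of complex V code for one mature protein, and their promoters stood at 67.5 CPM (Atp5g1), 48.8 CPM (Atp5g2) and 25.9 CPM (Atp5g3). Ndufa11b and Ndufb4c, named for their likeness to Ndufa11 and Ndufb4, had 4.62 and 2.86 CPM, against 63.9 and 26.1 CPM for those genes. Reads of such near copies can be split between the genes, which makes their values uncertain. Cox7b, the remaining gene under 10 CPM, averaged 8.59 CPM and is on the X chromosome, as are Ndufa1 (13.6 CPM) and Ndufb11 (22.9 CPM). The median of these 3 was 13.6 CPM against 29.5 CPM for the 92 autosomal genes. Over all symbols the medians were 3.30 CPM on the X chromosome and 14.0 CPM on autosomes, in male mice with a single X.

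**Figure D3:**
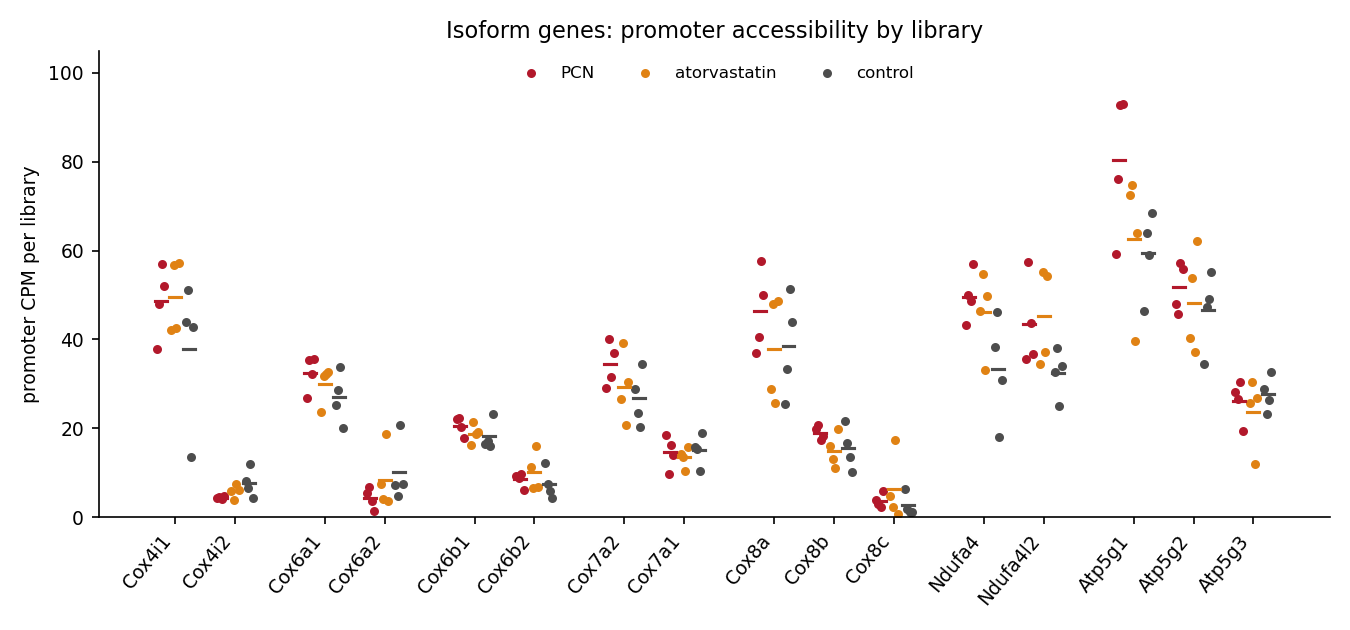
Promoter level (CPM, y axis) of isoform genes in each library, with PCN, atorvastatin and control from left to right within a gene. Points are libraries and bars are group means. Cox4i1 lies above Cox4i2 in every library, whereas Ndufa4 and Ndufa4l2 overlap.

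Many of these promoters are shared with a neighbour. In 25 of 81 windows (30.9%) another gene started within 1000 bases upstream on the opposite strand, against 11.4% of all windows and 12.3% of protein-coding ones. This concerned 22 genes, 21 of which had a partner with a row of its own, and partner and gene then held nearly equal counts (median difference 0.3%, largest 1.9% for Ndufa13). Sdhd starts 52 bases from Timm8b, Sdha 77 bases from Ccdc127 and Ndufa7 10 bases from Rps28. Atp5j starts 148 bases from Gabpa, which codes for the DNA-binding subunit of the ETS factor GABP, so the values of Atp5j and Gabpa come from mostly the same counts. For such pairs the counts do not say which of the genes the open chromatin serves.

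PCN against control asked whether activation of the pregnane X receptor altered accessibility at these promoters. No respiratory chain promoter passed the test, 0 of 95 beside 0% of the 41908 promoters tested (edgeR quasi-likelihood, adjusted by Benjamini-Hochberg, lowest adjusted p among the 95 = 0.918). At an unadjusted p under 0.05, 3 of the 95 were higher and 0 lower, against 1.87% and 1.88% of all promoters. DESeq2 and limma-voom also called 0 of the 95. Fitted log2 fold changes lay above 0 for 77 of the 95 genes, against 51% of all promoters, and their median was 0.23 against 0.01 over all promoters. By complex the medians were 0.31 for complex V (16 of 17 above 0), 0.26 for complex III (8 of 8), 0.22 for complex IV (15 of 20), 0.20 for complex I (29 of 38), 0.10 for complex II (3 of 4) and 0.09 for the assembly factors (6 of 8). Without the 2 low-correlation libraries the median over the 95 was 0.12, scaled by library totals alone it was 0.10 against -0.10 over all promoters, and with loess offsets it was 0.08.

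Atp5b, the catalytic beta subunit of complex V, had the smallest p. It had 51.6, 64.9, 64.8 and 60.8 CPM with PCN, against 41.5, 41.5, 17.9 and 39.6 CPM in control. The groups did not overlap, and control 3 lay far below the other controls. The log2 fold change was 0.77 ± 0.27 (SE, n = 4 each, edgeR quasi-likelihood with an adjusted p of 0.918), and 0.57 ± 0.23 without atorvastatin 3 and control 3. Ndufb10, an accessory subunit of the membrane arm of complex I, had 35.5, 40.0, 30.7 and 30.8 CPM with PCN and 26.0, 26.4, 19.1 and 23.3 CPM in control, also without overlap (0.52 ± 0.20). Such separation upwards was found for these 2 of the 95 genes and 2.07% of all promoters, and downwards for 0 of the 95 and 1.52%. Ndufa4 had 43.3, 49.9, 48.6 and 56.9 CPM with PCN and 38.3, 46.1, 17.9 and 30.8 CPM in control, where 1 control exceeded the lowest PCN library (0.55 ± 0.25, and 0.35 ± 0.21 without the 2 low-correlation libraries).

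The genes with the smallest p below 0 were isoforms of low level and Ndufa1. Cox6a2 had 5.47, 6.74, 3.70 and 1.45 CPM with PCN, against 7.31, 4.66, 20.7 and 7.54 CPM in control. Its log2 fold change of -1.19 ± 0.62 became -0.55 ± 0.50 without the 2 low-correlation libraries. Cox4i2 had 4.21, 4.63, 4.04 and 4.76 CPM with PCN and 8.08, 6.52, 12.0 and 4.40 CPM in control (-0.82 ± 0.52, and -0.56 ± 0.54 without control 3). For Ndufa1, an accessory subunit of complex I, the value of -0.55 ± 0.38 turned to 0.15 ± 0.29 without those libraries, since control 3 had 38.3 CPM and the other controls 8.85 to 11.9 CPM. For core subunits, values are also given without the control that was lowest or highest for that gene. That control was picked by its level, so leaving it out shifts the value in a direction known beforehand. Ndufs7 had 0.62 ± 0.32, and 0.34 ± 0.27 without control 3, its lowest library. Cox4i1 had 0.35 ± 0.28, and 0.08 ± 0.24 without control 3, which was also its lowest. Ndufv1 had 0.38 ± 0.24, and 0.25 ± 0.25 without control 3, and Atp5a1 had 0.14 ± 0.22, and -0.0013 ± 0.21 without it. Ndufs1 had -0.06 ± 0.24, and 0.20 ± 0.23 without control 4, its highest library, and Sdha had -0.28 ± 0.24, and -0.09 ± 0.24 without control 4.

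**Figure D4:**
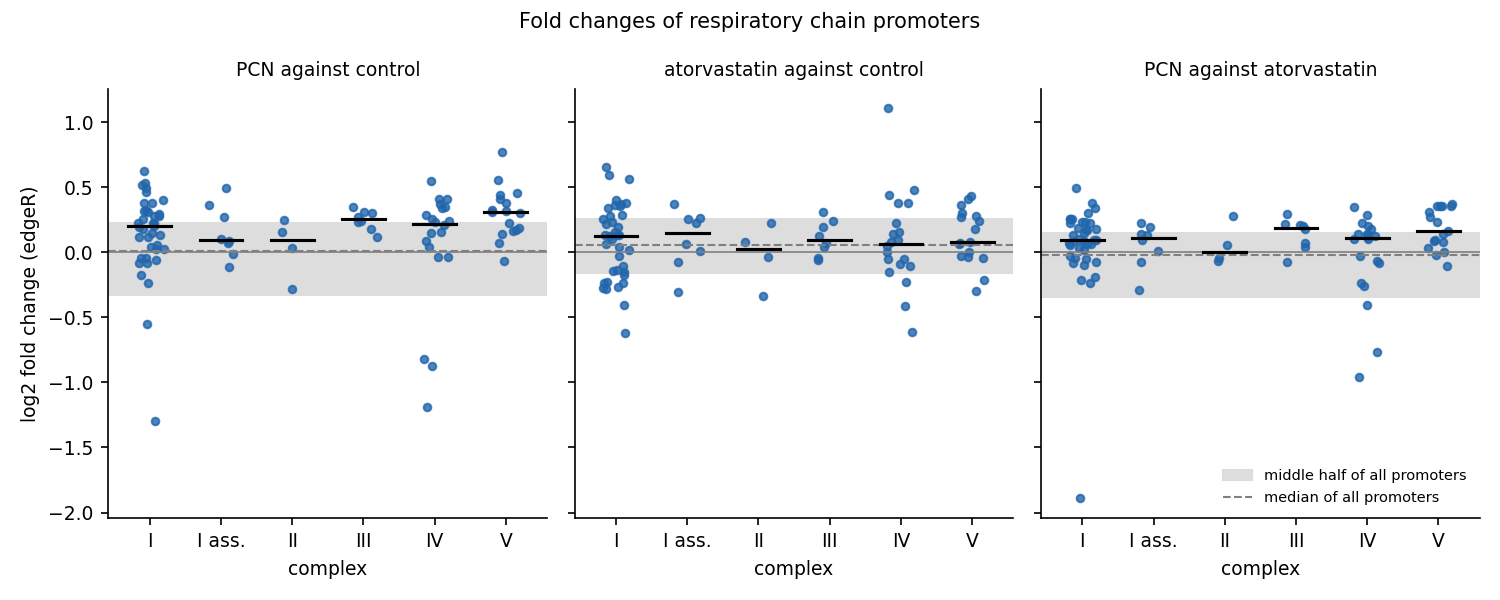
Fitted log2 fold change of each of the 95 promoters (y axis) by complex (x axis), for PCN against control, atorvastatin against control and PCN against atorvastatin. Points are genes, bars are medians, the dashed line marks the median of all promoters tested and the grey band holds the middle 50% of them. With PCN 77 of 95 points lie above 0 and with atorvastatin 62 of 95, and no point passed the test.

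Atorvastatin against control asked the same of a statin. Again 0 of the 95 promoters passed, beside 0% of all promoters (edgeR quasi-likelihood, adjusted by Benjamini-Hochberg, lowest adjusted p among the 95 = 1), and 0 did by DESeq2 and limma-voom. At an unadjusted p under 0.05, 1 was higher and 0 lower, against 1.06% and 0.866% of all promoters. Log2 fold changes lay above 0 for 62 of the 95, against 57.3% of all promoters, with a median of 0.08 against 0.05. The medians were 0.15 for the assembly factors, 0.13 for complex I, 0.10 for complex III, 0.08 for complex V, 0.07 for complex IV and 0.02 for complex II. Without the 2 low-correlation libraries the median over the 95 was 0.12, and with loess offsets besides it was -0.02.

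Ndufb6, an accessory subunit of complex I, had the smallest p with atorvastatin. It had 23.0, 23.8, 25.7 and 20.1 CPM with atorvastatin, against 21.0, 18.3, 6.38 and 14.5 CPM in control. A single control exceeded the lowest atorvastatin library, and control 3 was the lowest of all. The log2 fold change of 0.57 ± 0.26 became 0.26 ± 0.20 without the 2 low-correlation libraries. Ndufa4l2 had 34.5, 55.2, 37.1 and 54.3 CPM with atorvastatin and 32.6, 38.0, 25.1 and 33.9 CPM in control (0.48 ± 0.23). Ndufb10, with 27.7, 31.8, 29.0 and 35.9 CPM with atorvastatin and the control values given above, was the only one of the 95 without overlap (0.38 ± 0.20), against 0.535% of all promoters. No gene of the 95 lay wholly below control, against 0.441% of all promoters.

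On the lower side with atorvastatin, Sdha had a log2 fold change of -0.33 ± 0.24, and -0.14 ± 0.23 without control 4, its highest library at 33.9 CPM. Ndufa9, an accessory subunit of complex I, had 19.9, 13.4, 10.0 and 11.8 CPM with atorvastatin and 19.4, 16.9, 19.9 and 15.7 CPM in control (-0.40 ± 0.27, and -0.27 ± 0.23 without the 2 low-correlation libraries). Ndufa1 had -0.62 ± 0.38, and -0.03 ± 0.31 without the 2 low-correlation libraries. Cox8c had the highest value of the 95, 1.11 ± 0.79, from 4.87, 2.31, 17.4 and 0.652 CPM with atorvastatin and 6.38, 1.86, 1.20 and 1.26 CPM in control. That value turned to -0.52 ± 0.65 without atorvastatin 3 and control 3. Core subunits lay between -0.33 (Sdha) and 0.41 (Atp5b), with 95% intervals of -0.80 to 0.13 and -0.10 to 0.93. The value of Atp5b was 0.21 ± 0.25 without control 3 and 0.57 ± 0.25 without atorvastatin 3.

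PCN against atorvastatin set the treatments side by side at unequal doses, and both share the same controls above. No promoter of the 95 passed, beside 0% of all promoters (edgeR quasi-likelihood, adjusted by Benjamini-Hochberg, lowest adjusted p = 1), and DESeq2 and limma-voom called 0. At an unadjusted p under 0.05 there were 0 higher and 0 lower, against 0.043% and 0.687% of all promoters. Log2 fold changes lay above 0 for 69 of the 95, against 47.9%, with a median of 0.11 against -0.02, and of 0.04 without the 2 low-correlation libraries. Ndufb11, a subunit of complex I, had 15.9, 24.01, 34.0 and 33.3 CPM with PCN and 16.6, 23.3, 10.2 and 25.4 CPM with atorvastatin (0.49 ± 0.29). Atp5e, the epsilon subunit of complex V, had 0.36 ± 0.23 and Ndufa12 0.30 ± 0.21. Without the 2 low-correlation libraries these values were 0.28 ± 0.18 for Ndufb11, 0.18 ± 0.19 for Atp5e and 0.20 ± 0.17 for Ndufa12. Ndufb4c had -1.89 ± 0.95 and Cox6a2 -0.96 ± 0.61, each with atorvastatin 3 as the highest library, and without the 2 low-correlation libraries the values were -0.22 ± 0.74 and -0.17 ± 0.50. Ndufa10 had -0.24 ± 0.21.

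Summed over the 95 promoters, accessibility differed more between libraries than between groups. The sums were 2859, 3327, 3386 and 3408 CPM with PCN, 2654, 3425, 2392 and 3369 CPM with atorvastatin and 2640, 2915, 2344 and 3146 CPM in control. They averaged 3245 ± 260 CPM with PCN, 2960 ± 516 CPM with atorvastatin and 2761 ± 347 CPM in control (SD, n = 4 each). The groups overlapped, and the 2 lowest sums were those of the low-correlation libraries. The share of counts in 1132 olfactory receptor promoters, genes closed in liver, was 0.207 to 0.427% with PCN, 0.136 to 0.911% with atorvastatin and 0.222 to 0.552% in control. The 6 libraries with shares of 0.372% or more were PCN 1, atorvastatin 1 and 3, and controls 1, 2 and 3, an uneven split between groups. They had respiratory chain sums of 2344 to 2915 CPM, and the other 6 had sums of 3146 to 3425 CPM. The part of this share in the fold changes was not tested.

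**Figure D5:**
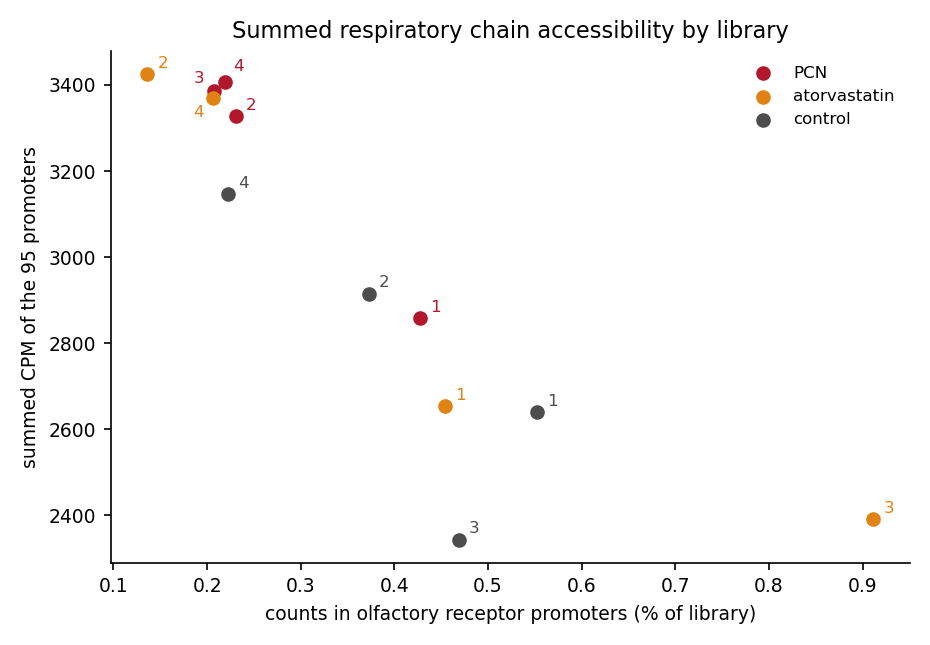
Summed level of the 95 promoters (CPM, y axis) against the share of counts in 1132 olfactory receptor promoters (percent, x axis). Points are the 12 libraries with their replicate number. Sums of 3146 CPM and above go with olfactory shares of up to 0.231%, and the 2 lowest sums with 0.911% (atorvastatin 3, 2392 CPM) and 0.469% (control 3, 2344 CPM).

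Genes that work beside the respiratory chain did not pass the test either. Of 43 tested genes for cytochrome c, cytochrome c1 and assembly factors, 33 lay above 0 with PCN (median 0.16) and 24 with atorvastatin (median 0.03). Without the 2 low-correlation libraries it was 35 with PCN (0.18) and 33 with atorvastatin (0.15). Bcs1l, a chaperone that inserts the Rieske protein into complex III, averaged 53.7 ± 7.42 CPM with PCN, 59.5 ± 5.93 CPM with atorvastatin and 38.9 ± 8.10 CPM in control (SD, n = 4 each). Its log2 fold changes were 0.47 ± 0.22 and 0.62 ± 0.22, at adjusted p of 0.918 and 1 (edgeR, Benjamini-Hochberg). Ttc19, another complex III factor, had 0.57 ± 0.24 and Ecsit, a complex I factor, 0.51 ± 0.22 with PCN. These 3 had the smallest p of the list over all 12 libraries. Without the 2 low-correlation libraries, Bcs1l had 0.39 ± 0.23 with PCN and 0.52 ± 0.24 with atorvastatin. With PCN, Ttc19 then had 0.43 ± 0.20 and Ecsit 0.61 ± 0.20. Coa4, another gene of the list, picked after its values were seen, then had 0.73 ± 0.18 with PCN. It did not pass either (adjusted p of 0.27, edgeR, Benjamini-Hochberg). On the other side, and picked after its values were seen, Lyrm7, a further complex III factor, had -0.59 ± 0.32 with atorvastatin, and 0.07 ± 0.20 without the 2 low-correlation libraries. Among 15 genes of ubiquinone synthesis and the mevalonate steps before it, 11 lay above 0 with PCN (median 0.19) and 8 with atorvastatin (median 0.03), and without those libraries 12 (0.18) and 12 (0.17) did.

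Of 18 regulators of mitochondrial biogenesis and mitochondrial DNA, 15 lay above 0 with PCN (median 0.20) and 11 with atorvastatin (median 0.08), and none passed. Without the 2 low-correlation libraries it was 15 (0.17) with PCN and 16 (0.18) with atorvastatin. Esrra, which codes for ERRα, was among the most open at 110 CPM, with Yy1 at 102 CPM and Nrf1 at 34.2 CPM. Ppargc1a, the fasting-induced coactivator PGC-1α, averaged 22.7 ± 5.37 CPM with PCN, 16.2 ± 3.67 CPM with atorvastatin and 15.7 ± 9.00 CPM in control (SD, n = 4 each). Twnk, the mitochondrial DNA helicase, and Polg2, a subunit of the mitochondrial DNA polymerase, had log2 fold changes of 0.63 ± 0.27 and 0.63 ± 0.28 with PCN, neither past the test (0.51 ± 0.26 for Twnk and 0.46 ± 0.22 for Polg2 without those libraries). Polrmt, the mitochondrial RNA polymerase, which was picked after its values were seen, had -0.48 ± 0.27 with PCN, and -0.18 ± 0.19 without them. Over the genes with a window, the median log2 fold changes of genes with and without a motif lay close together, and their difference was not tested. With PCN the medians were 0.20 for genes with an NRF1 match and 0.24 for those without, 0.27 and 0.20 for ETS, and 0.34 and 0.23 for YY1.

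The submitters' enhancer table gave a measure that the choice of genes did not use. It placed 153 regions inside the bodies of 38 respiratory chain genes (overlap of at least 1 base, mm10), of which 52 regions in 12 genes passed the filter, at 13 separate loci. None passed the test with PCN or with atorvastatin, beside 0% of 182115 regions in each comparison (edgeR quasi-likelihood, adjusted by Benjamini-Hochberg, lowest adjusted p = 1). At an unadjusted p under 0.05, 7 were higher and 1 lower with PCN, against 1.24% and 0.683% of all regions. With atorvastatin 7 were higher and 0 lower, against 1.71% and 0.683%. The 7 higher regions with PCN and the 7 with atorvastatin are the same 7, which overlap each other at a single locus in Ndufa7, so they are neither independent of each other nor separate evidence for each treatment.

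The region with the smallest p in both comparisons, chr17:33828935-33829117 in Ndufa7 (an accessory subunit of complex I), separated both treatments from control. It had 14.8, 15.4, 11.3 and 17.2 CPM with PCN, 12.9, 18.0, 15.0 and 20.0 CPM with atorvastatin and 7.22, 9.77, 3.24 and 7.60 CPM in control. All 8 treated libraries lay above all 4 controls, which held for 7 of the 52 regions, all at this locus, and for 0.775% of all regions tested. With PCN alone 8 of the 52 lay wholly above control and 1 wholly below, against 3.64% and 0.859% of all regions, and with atorvastatin alone 7 above and 0 below, against 2.12% and 0.674%. None of the 52 lay below control in both treatments, against 0.186% of all regions. The log2 fold changes were 1.05 ± 0.38 (unadjusted p = 0.0112) for PCN and 1.24 ± 0.38 (unadjusted p = 0.00353) for atorvastatin, with an adjusted p of 1 each (edgeR's quasi-likelihood test, n = 4 each). The treatments share the same 4 controls. Enhancer counts per library ran from 1256648.5 in control 4 and 1530063.5 in control 3 to 13078975.5 in atorvastatin 2. The values of control 3 and control 4 in this region therefore rest on few counts. Control 3 had 0 CPM in several overlapping regions of the locus. Fold changes of this region without control 3 are not reported here. The single lower region with PCN was a separate locus of the same gene, chr17:33832289-33832435, with 1.91, 1.71, 0.375 and 1.43 CPM with PCN and 3.09, 2.61, 8.64 and 8.55 CPM in control (log2 fold change -2.02 ± 0.79). The Ndufa7 promoter itself had 23.2, 30.7, 27.4 and 27.3 CPM with PCN, 20.6, 22.9, 17.8 and 24.1 CPM with atorvastatin and 23.4, 25.2, 0 and 24.5 CPM in control, where control 3 held no count. Its treated and control libraries overlapped. Over all 52 regions the median log2 fold change was 0.10 with PCN against 0.17 over all regions, and 0.15 with atorvastatin against 0.13. These medians changed with the setting. Without the 2 low-correlation libraries (53 regions) they were 0.34 against 0.02 with PCN and 0.31 against 0.01 with atorvastatin. At a minimum count of 30 (15 regions) they were 0.77 against 0.09 and 0.88 against 0.08. With loess offsets they were -0.199 against -0.145 and -0.0887 against -0.0747. Overlapping regions count separately in all these medians, and 11 of the 52 regions lie in Ndufa7. A higher minimum count keeps regions with more counts, and those at the higher locus of Ndufa7 had mean levels of 7.74 to 12.7 CPM. The medians at a minimum count of 30 are therefore not over separate loci, whose number is not reported here. The cause of these changes was not tested.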

How the data were processed

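ATAC-seq counts of 12 liver libraries in 3 groups of 4 (PCN, atorvastatin, control) were used, grouped by their labels. Per the submitters' processing notes, the build was mm10 and the tools were HOMER 4.10, bedtools 2.30.0, STAR 2.7.9a and Trimmomatic, with no roles given. The authors deposited unnormalised expected counts, in steps of 0.5, for 43511 promoters named by transcript and for enhancer regions. The counting tool, the promoter width and the rule for an enhancer are not given in the sources used here.

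Counts were rounded and fitted in R 4.3.3 with edgeR 4.0.16 (quasi-likelihood test on all 12 libraries, group as the only factor, TMM scaling, and filterByExpr at minimum counts of 10 and totals of 15). Benjamini-Hochberg adjustment covered all promoters, or all enhancer regions, with a threshold of 0.05. CPM are scaled by TMM. Each SE was taken from the log2 fold change and its F statistic (fold change divided by root F). The fit was tested on simulated data. Counting error and the number of libraries limit precision, and low promoters such as Cox7b2 rest on few counts.

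The genes, lists, windows' motifs and named genes were chosen with earlier results of these data known. Named were core subunits, isoform genes, the 5 highest and 5 lowest promoters and the 3 genes of smallest p per direction. Values of some genes that this rule names are not reported here. All 147 rows of the 95 genes were also tested, and the 52 rows not shown gave 0 calls. Alternatives were loess offsets, library totals, RLE size factors, a minimum count of 30 or none, DESeq2 1.42.0, limma-voom (limma 3.58.1), fits of 2 groups, a replicate block, each library left out, atorvastatin 3 and control 3 left out, and an adjusted p of 0.1. Leaving out control 1 besides, and leaving out assembly factors and genes under 10 CPM, were chosen after seeing the data. Pravastatin libraries are not analysed here.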

Additional observations from a re-analysis of the deposited data

Results flagged for a closer look

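Among 141 groups of 4 libraries (47 named genes in 3 groups), 9 held a library whose gap to its neighbour exceeded Dixon's 95% critical value, and chance alone flags about 1 in 20 groups. Of these, 7 were high and 2 low, and control 4 had 3 of them and control 3 had 2. In PCN, Ndufv1 had 64.9 CPM in replicate 2 against 47.0 to 49.5 CPM in the others. In atorvastatin, Cox6a1 had 23.7 CPM in replicate 1 against 31.9 to 32.6 CPM, and Ndufb4c 13.5 CPM in replicate 3 against 0.723 to 1.79 CPM. In control 4, the shallowest library, Ndufs1 had 67.9 CPM against 33.1 to 37.4 CPM, Sdha 33.9 CPM against 19.6 to 21.5 CPM and Cox6b1 23.3 CPM against 15.9 to 17.1 CPM. In control 3, Atp5b had 17.9 CPM against 39.6 to 41.5 CPM and Ndufa1 38.3 CPM against 8.85 to 11.9 CPM. In control 1, Cox8c had 6.38 CPM against 1.20 to 1.86 CPM.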

How the results depend on the processing

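No respiratory chain promoter and no enhancer region in these genes passed an adjusted p of 0.05 under any alternative run, and leaving out each library in turn gave 0 to 0 calls in every comparison. The median log2 fold change over the 95 promoters ranged, with each library left out in turn, from 0.11 (without control 3) to 0.28 (without control 4) for PCN against control. For atorvastatin against control it ranged from 0.03 (without atorvastatin 2) to 0.16 (without atorvastatin 3), and for PCN against atorvastatin from 0.04 to 0.18. For PCN against control it was 0.021 with loess offsets and without atorvastatin 3 and control 3, the one alternative that moved it by more than the 0.197 SD between libraries, and the cause was not tested. That setting gave -0.02 for atorvastatin against control. The SD is close to the main median of PCN against control (0.228) and above those of the other comparisons (0.0825 and 0.106). A shift smaller than the SD therefore does not show that a median is stable. The labels do not say what replicate numbers share, and they were not treated as pairs in the main fit. Of 12 correlations of deviations between same-numbered libraries, 6 exceeded 0.1. These were the 6 of replicates 1 and 4 (0.227 to 0.5), while those of replicates 2 and 3 lay between -0.416 and 0.0954, and 5 of 12 libraries correlated best with their own number. Whether part of the numbers pair is not settled by these values. With the replicate block the medians were 0.23, 0.09 and 0.13 and 0 of the 95 were called. With the block and without atorvastatin 3 and control 3, 124 and 57 of all 41915 promoters passed for PCN and atorvastatin against control, none of the 95 (lowest adjusted p 0.108 and 0.229). Median levels by complex moved by less than the spread when those libraries were left out. Depth limits the low promoters, where a few counts in control 3 or control 4 set the level.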

Other observations

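The distance over which neighbouring promoters shared counts can be read from pairs of genes with a single RefSeq start each. Pairs less than 250 bases apart differed by a median of 0.005 (absolute log2 ratio of mean CPM with 0.5 added, 504 pairs) and pairs 500 to 1000 bases apart by 0.0279 (108 pairs). At 1000 to 2000 bases the median was 0.0971 (121 pairs), and at 3000 to 5000 bases it was 0.80 (267 pairs). Sdha, Sdhd, Atp5j and Ndufa7 start within 250 bases of a neighbour, so their levels cannot be told apart from the neighbour's in this table. Of the 31 genes with several promoter rows, the rows not shown numbered 52, and 24 of these held counts identical to the row shown.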
